A study of Mus musculus with 22 samples.

Results

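The transcripts described here are those of the 6 actins (Actb, Actg1, Actg2, Acta1, Acta2 and Actc1) and of 3 actin nucleators of the oocyte (Fmn2, Spire1 and Spire2), 9 genes of the 52636 in the table of gene counts. They were chosen by name. Actg2 had the largest fall in Dicer ΔMT/ΔMT oocytes, and the nucleators move the meiotic spindle. The comparison of Dicer ΔMT/ΔMT with wild-type oocytes therefore chose the set and is given below as a description, without a test of any of the 9 genes.

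RNA-seq libraries were prepared from total RNA of pools of fully-grown germinal vesicle (GV) oocytes of C57BL/6 mice, 22 libraries in all. In the single-end run there were 3 wild-type, 1 Dicer ΔMT/WT, 4 Dicer ΔMT/ΔMT and 3 Dicer SOM/SOM libraries. The ΔMT allele lacks the MT retrotransposon that serves as the oocyte promoter of Dicer, and the SOM allele encodes only the full-length, somatic form of the enzyme, so that it removes the truncated oocyte isoform that drives RNAi. In ΔMT/ΔMT oocytes a downstream retrotransposon can still give rise to a truncated form, which limits them as a model of its loss. In the paired-end run every animal carried at least a single Mili DAH allele, which encodes a catalytically inactive MILI of the piRNA pathway, and at least a single Dicer SOM allele. Its groups were 4 controls (HET: Mili DAH/WT, Dicer SOM/WT), 1 Mili mutant (MILI: Mili DAH/DAH, Dicer SOM/WT), 2 RNAi mutants (RNAI: Mili DAH/WT, Dicer SOM/SOM) and 4 double mutants (DBL: Mili DAH/DAH, Dicer SOM/SOM). The controls of that run were thus not wild type. Ages are given by the labels only for the paired-end run: 36, 38, 10 and 17 weeks for HET (replicates 1o, 2o, 2 and 3), 16 for MILI, 17 and 13 for RNAI, and 40, 35, 11 and 11 for DBL (replicates 1o, 2o, 1 and 2). The Dicer SOM line descends from a single embryonic stem cell clone. The libraries of a group were not stated to come from separate animals, and p-values measure the spread between these libraries, which may in part be technical.

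In GRCm38 the genes lie at chr5:142903115-142906754 (Actb), chr11:120345690-120348542 (Actg1), chr6:83512905-83536265 (Actg2), chr8:123891769-123894751 (Acta1), chr19:34241090-34255590 (Acta2) and chr2:114047282-114053548 (Actc1), all on the minus strand, and at chr1:174501825-174822729 (Fmn2, plus strand), chr18:67488209-67610790 (Spire1, minus strand) and chr8:123332713-123369515 (Spire2, plus strand). Values are reads counted over their exons.

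Actins are the subunits of microfilaments. Actb and Actg1 encode the cytoplasmic β- and γ-actins of nonmuscle cells, whereas Acta2 and Actg2 encode the actins of vascular and enteric smooth muscle, and Acta1 and Actc1 those of skeletal and cardiac muscle. In the mouse oocyte, the formin FMN2 and the WH2-domain proteins SPIRE1 and SPIRE2 nucleate a cytoplasmic actin network, partly from the surface of vesicles that carry RAB11 and myosin Vb, and this network is needed to move the meiotic spindle to the cortex and to extrude the polar body.

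The actins differ from one another in few amino acids, and their messages are alike enough that reads can be shared. The first 66 coding bases are shown because the table counted reads that map to several genes, and because they differ among the actins at the start of the protein. They were read from GENCODE M21 transcripts on GRCm38, on the minus strand of chr6:83527376-83527441 (Actg2), chr11:120348026-120348091 (Actg1), chr5:142905621-142905686 (Actb), chr8:123893632-123893697 (Acta1), chr19:34252488-34252553 (Acta2) and chr2:114051966-114052031 (Actc1). Capitals mark bases that differ from Actg2 at the aligned position. Bases of Acta1, Acta2 and Actc1 with no counterpart in Actg2 are in lower case, and 63 of the 66 bases were compared there.
Actg2: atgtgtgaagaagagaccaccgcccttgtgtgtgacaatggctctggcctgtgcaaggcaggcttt
Actg1: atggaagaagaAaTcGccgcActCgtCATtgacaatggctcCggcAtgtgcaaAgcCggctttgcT
Actb: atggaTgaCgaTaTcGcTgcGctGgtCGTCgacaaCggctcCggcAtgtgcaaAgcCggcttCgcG
Acta1: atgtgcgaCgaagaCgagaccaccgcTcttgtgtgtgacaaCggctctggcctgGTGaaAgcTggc
Acta2: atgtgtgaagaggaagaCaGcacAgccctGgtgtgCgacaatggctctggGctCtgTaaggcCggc
Actc1: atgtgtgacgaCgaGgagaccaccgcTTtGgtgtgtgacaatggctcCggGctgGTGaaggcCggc

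Over the whole coding sequence Actg2 was 82.8% identical to Actg1, 83.0% to Actb and 85.2% to Acta1, while Actb and Actg1 were 88.6% identical. No stretch of 50 bases (the read length of the single-end run) of the Actg2 transcript occurred in a transcript of another gene, and the same held for Actc1, Fmn2, Spire1 and Spire2. Of the Actg1 stretches, 56.7% occurred in at least 1 other gene at 50 bases and 54.5% at 75 bases, the read length of the paired-end run. The figures for Actb were 14.2% and 2.60%. Actg1 was the only one of the 9 genes with near-identical copies (at least 95% identity over at least 50% of the transcript). These were 5 processed pseudogenes, Gm12715 on chromosome 4, Gm8399 on chromosome 13, Gm8543 on chromosome 9, Actg-ps1 on chromosome 8 and Gm16385 on chromosome 16. Reads were counted without regard to strand and split between the places where they mapped, so the Actg1 value is a share of the reads of this family. On the other strand, Acta1 overlaps Gm20388, Spire1 overlaps Gm17669 and Actc1 overlaps A530058N18Rik, which unstranded reads cannot tell apart. On their own strand, Spire2 overlaps Gm20388 and Actg1 overlaps Gm23419 and Mir6935.

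The single-end libraries held between 6468380 and 90713013 assigned reads and the paired-end libraries between 22928936 and 43540806. Dicer SOM/SOM replicate 3 was the shallowest of all, and a count of 3, the floor used here, is 0.464 CPM (counts scaled to a common library total) in it. The floor covers counting error only. Dicer1 itself was at 1001 to 1057 CPM in wild type, at 428 to 536 where both alleles were ΔMT and at 41.9 to 54.9 where both were SOM, and at 502 to 763 CPM in HET against 53.2 to 62.1 in RNAI and DBL. All 10 oocyte markers exceeded 1 CPM in every group and together made up 10644 to 14026 CPM. Gm42418, which overlaps ribosomal RNA sequence, was at 4086 to 5503 CPM in 6 paired-end libraries (DBL 1o and 1, both RNAI, HET 1o and 3) and at 294 to 557 CPM in the other 5 (DBL 2o and 2, MILI, HET 2o and 2). All counts below were called by edgeR's quasi-likelihood F test at a Benjamini-Hochberg adjusted p under 0.05, within each run.

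Per length, the nucleators Spire1 and Fmn2 were the most abundant of the 9 messages in control oocytes. In wild type they were at 87.0 ± 4.85 and 81.0 ± 8.55 RPKM (CPM per kilobase of exon, SD, n = 3), with overlapping libraries. Actb followed at 43.0 ± 2.44 RPKM and Actg1 at 12.3 ± 0.637, neither of which overlapped its neighbours. Spire2 at 3.58 ± 0.819 RPKM and Actg2 at 3.02 ± 0.474 RPKM overlapped. The muscle actins Acta1 at 0.261 and Acta2 at 0.0724 RPKM were far lower, and Actc1 had no count in wild type. The order was the same in HET, where Spire1 stood at 90.2 ± 4.2, Fmn2 at 89.5 ± 8.35, Actb at 36.7 ± 3.72, Actg1 at 22.5 ± 2.96, Spire2 at 2.95 ± 0.261 and Actg2 at 1.60 ± 0.266 RPKM (n = 4), and where Spire2 and Actg2 did not overlap but Acta1 and Acta2 did. The runs were scaled apart.

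Actg2, the enteric smooth muscle actin, was lower in every library of oocytes homozygous for either Dicer allele than in wild type. In wild-type libraries it stood at 4.80, 4.05 and 3.52 CPM, and in the single Dicer ΔMT/WT library at 4.60 CPM. In the 4 Dicer ΔMT/ΔMT libraries it was at 0.688, 0.332, 0.437 and 0.485 CPM. In Dicer SOM/SOM it was at 0.373 and 0.346 CPM in replicates 1 and 2 and at 0.145 CPM in replicate 3, where this is a single count and lies under the floor. Neither mutant group overlapped the wild type. The mean of Dicer ΔMT/ΔMT was 11.8% and that of Dicer SOM/SOM 6.98% of the wild-type mean. The log2 fold changes fitted by edgeR were -3.09 and -3.61. The first of these values chose the gene, and the second shares its wild-type libraries, so neither is offered as a test. Without replicate 3, the SOM/SOM value was -3.52. The fitted log2 fold change of Dicer SOM/SOM against Dicer ΔMT/ΔMT was -0.52, and the libraries of these groups overlapped. The next genes in the ranking that chose Actg2 were Erbb4, an ErbB receptor, at -3.08 and Has2, a hyaluronan synthase, at -2.86.

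In the paired-end run, which the choice did not use, Actg2 was again lower in RNAi mutants. HET libraries were at 2.36, 2.20, 2.5 and 1.67 CPM (replicates 1o, 2o, 2 and 3) and the MILI library at 2.37 CPM. The 2 RNAI libraries were at 0.389 and 0.163 CPM, 9 and 6 counts, below every HET library. The log2 fold change was -3.04 (SE 0.73, adjusted p = 0.0154), and it was 1 of 2 of the 9 genes called in this comparison, against 10.7% of the 20989 genes tested (7.07% higher and 3.64% lower). The call was lost when either RNAI library was left out (-3.73, adjusted p = 0.057 without replicate 1, and -2.47, adjusted p = 0.192 without replicate 2), which leaves 1 library that is assumed to vary like those of the other groups. DESeq2 gave adjusted p = 2.2e-04.

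**Figure D1:**
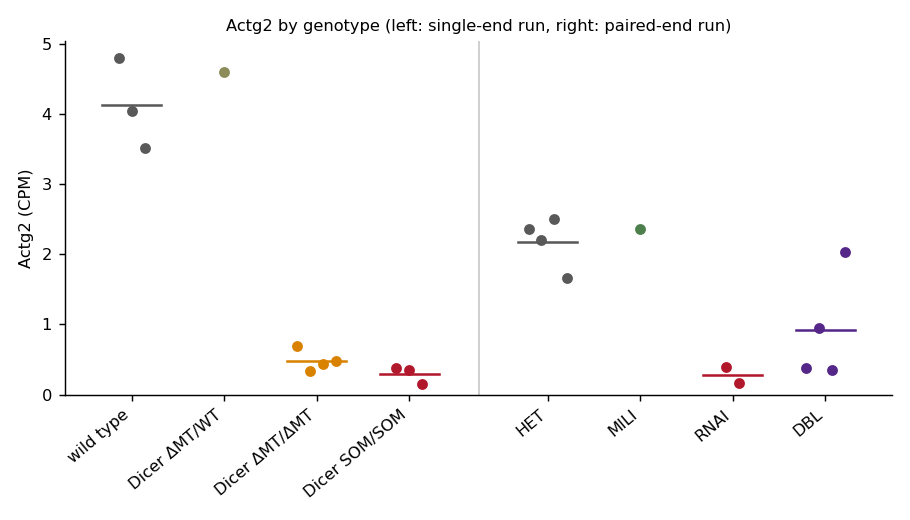
Actg2 in CPM (linear axis from 0) in each library, by genotype, with the single-end run left of the grey line and the paired-end run right of it. Horizontal bars are group means. The 4 Dicer ΔMT/ΔMT and 3 Dicer SOM/SOM libraries lie between 0.145 and 0.688 CPM, all below wild type, while the DBL libraries spread from 0.344 to 2.03 CPM.

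Double mutants were spread more widely. DBL libraries were at 0.377, 0.948, 0.344 and 2.03 CPM (replicates 1o, 2o, 1 and 2), the last above the lowest HET library. The log2 fold change of DBL against HET was -1.25 (SE 0.48, adjusted p = 0.0834) and was not called. The 2 lower libraries were those with high Gm42418 and the 2 higher ones those with low Gm42418. This split and the split by age were chosen after the data were seen, so their p-values are descriptions and no support for a change. Within the high set the log2 fold change was -2.47 (SE 0.52, adjusted p = 0.00967) and within the low set -0.67 (SE 0.47, adjusted p = 0.405). The difference between the sets was not tested, and the part of Gm42418 in the spread was not tested. Within animals over 30 weeks the value was -1.76 (SE 0.70, adjusted p = 0.134) and within younger animals -0.83 (SE 0.69, adjusted p = 0.521). Without replicate 2 the value was -1.95 (adjusted p = 0.00499). DBL against RNAI gave 1.78 (95% interval 0.37 to 3.20, adjusted p = 0.901), which was not called.

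Markers of smooth muscle were examined beside its actin. Of 10 genes on that list, 3 to 6 exceeded 1 CPM in a group. Myh11, the smooth muscle myosin heavy chain, was at 166 to 217 CPM in wild type, 144 to 182 in the ΔMT/ΔMT and 79.1 to 161 in the SOM/SOM libraries, so that the last 2 groups lay partly or wholly below wild type. Cnn1 was also lower, at 14.8 to 16.1 CPM in wild type, 10.6 to 12.2 in ΔMT/ΔMT and 7.16 to 13.3 in SOM/SOM. In the same order, Tagln was at 0.119 to 0.414, 0.0834 to 0.166 and 0.126 to 0.435 CPM. Des went the other way, at 0.0149 to 0.114, 0.129 to 0.334 and 0.236 to 1.02 CPM. Lmod1 was at 0 to 0.0689, 0 to 0.332 and 0 to 0.145 CPM, and Myocd at 7.70 to 22.5, 8.38 to 16.85 and 9.42 to 25.0 CPM. Mylk was at 1.04 to 1.29, 0.792 to 1.79 and 0.435 to 1.03 CPM. Smtn, Synpo2 and Ldb3 overlapped wild type in both mutant groups. In the paired-end run Des was at 0 to 0.0492 CPM in HET, 0.109 to 0.173 in RNAI and 0.189 to 0.846 in DBL. Cnn1 was lower in the mutants there, at 8.60 to 13.1 CPM in HET, 4.93 to 5.78 in RNAI and 5.11 to 7.63 in DBL. The other genes of the list overlapped HET in RNAI and in DBL. The summed list was at 192 to 248 CPM in wild type against 174 to 205 in the ΔMT/ΔMT and 119 to 195 in the SOM/SOM libraries, and 172 to 274 CPM in HET against 132 and 207 in RNAI. In DBL it was 179.6, 112.9, 183.0 and 100.4 CPM (replicates 1o, 2o, 1 and 2), higher in the libraries with less Actg2. Myh11 alone made up most of the sum in every group. In bulk samples fewer cells of a type and less RNA per cell cannot be told apart. Of the endothelial markers, Cdh5 and Emcn had no count in any wild-type library and did not exceed 1 CPM in any group. Pecam1, Kdr, Tek and Tie1 exceeded it in all. The list summed to 99.1 to 100.7 CPM in wild type, above the 82.1 to 90.6 CPM with both ΔMT alleles and the 81.9 to 82.8 CPM with both SOM alleles. In the paired-end run the sum was 79.2 to 97.8 CPM in HET, 91.8 and 107 in RNAI and 68.2 to 87.7 in DBL. Whether cells of these types were present, or had a part in the Actg2 result, was not tested.

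Actg1, the cytoplasmic γ-actin, changed in the opposite direction. Wild-type libraries were at 24.6, 22.6 and 24.8 CPM and the Dicer ΔMT/WT library at 24.8 CPM. The Dicer ΔMT/ΔMT libraries were at 42.7, 42.9, 43.7 and 44.7 CPM, and the Dicer SOM/SOM libraries at 57.4, 65.2 and 124 CPM, the last being replicate 3. The groups did not overlap, with the ΔMT/ΔMT libraries between the others. For Dicer ΔMT/ΔMT, which entered the choice of the set, Actg1 had a log2 fold change of 0.86. In that comparison 2 of the 9 genes (Actg1 and Actg2) passed the threshold, as did 15.4% of the 23151 genes tested (8.06% higher and 7.30% lower), and nothing is read from this, since these libraries chose the set. Actg1 did not pass when any one wild-type library was left out (0.82 to 0.88). For Dicer SOM/SOM against wild type it was 1.76 (SE 0.23, adjusted p = 2.62e-04), and without replicate 3 it was 1.35 (adjusted p = 4.5e-06). Apart from Actg2, which is not counted as a test here, it was the only one of the 9 genes called, against 28.6% of all genes tested (14.5% higher and 14.2% lower). Against Dicer ΔMT/ΔMT, Actg1 in Dicer SOM/SOM was higher by 0.90 (SE 0.21, adjusted p = 0.0277), the only one of the 9 genes called, against 7.35% of all genes (4.03% higher and 3.32% lower). That call was lost when any one of the Dicer ΔMT/ΔMT libraries was left out (adjusted p between 0.0589 and 0.0759) and when only these groups were fitted (adjusted p = 0.0624). Without SOM/SOM replicate 3 it was 0.49 (adjusted p = 0.00635).

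In the paired-end run, HET libraries were at 39.4, 48.0, 49.7 and 38.4 CPM of Actg1 and the MILI library at 37.4 CPM. RNAI libraries were at 93.5 and 80.0 CPM and DBL libraries at 89.4, 109, 95.1 and 105 CPM, all above every HET library. The log2 fold changes were 0.98 (SE 0.16, adjusted p = 8.46e-04) for RNAI and 1.18 (SE 0.13, adjusted p = 2.49e-05) for DBL. Actg1 was the only one of the 9 genes called in DBL, against 21.2% of all genes tested (12.3% higher and 8.84% lower). The value for DBL was 1.24 (SE 0.14) within the high and 1.13 (SE 0.14) within the low Gm42418 set. DBL and RNAI did not differ by more than their spread (log2 fold change 0.20, 95% interval -0.12 to 0.51). These comparisons share their HET libraries.

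Actg1 alone averaged 24.0 CPM in wild type and 43.9 CPM in HET, values of runs that were scaled apart. The sum of Actg1 and the 4 copies that have a row in the table was 53.8 ± 1.92 CPM in wild type (SD, n = 3) and 55.7 ± 6.52 CPM in HET (n = 4). The copies held 29.2 to 30.9 CPM of this sum in wild type but 11.0 to 13.9 CPM in HET. Reads were longer in the second run, and the part of read length in this split was not tested. The summed value was 94.2 to 99.9 CPM with both ΔMT alleles, 125, 142 and 308 CPM with both SOM alleles, 104 and 118 CPM in RNAI and 115 to 138 CPM in DBL. The means were 1.81, 3.56, 2.0 and 2.29 times those of their controls. DBL differed from HET (p = 0.0286 in a two-sided exact permutation test, which 4 against 4 libraries cannot go below). For Dicer SOM/SOM the exact test gave p = 0.1 and for RNAI p = 0.0667, each the smallest that these numbers of libraries allow. Of the 18 other genes with a row that share 50-base stretches with Actg1, 14 rose and 2 fell with both SOM alleles, and their calls rest in part on the same reads.

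**Figure D2:**
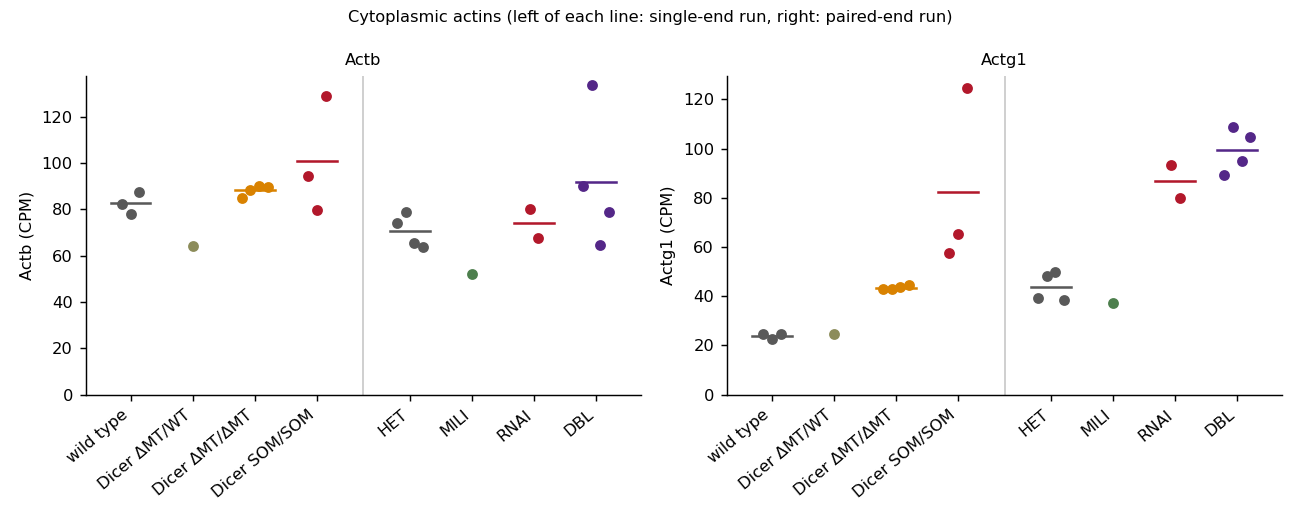
Actb (left) and Actg1 (right) in CPM (linear axes from 0) in each library by genotype, with the single-end run left of each grey line and group means as horizontal bars. Actg1 lies between 42.7 and 124 CPM in the Dicer ΔMT/ΔMT and Dicer SOM/SOM libraries against 22.6 to 24.8 CPM in wild type, while Actb overlaps its controls in every group of more than 1 library. The single Dicer ΔMT/WT and MILI libraries, at 64.1 and 52.3 CPM of Actb, lie below their controls.

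Actb, the cytoplasmic β-actin, did not pass the test in any comparison. It was at 82.3, 78.1 and 87.4 CPM in wild type, 84.8 to 90.1 CPM with both ΔMT alleles and 94.3, 79.6 and 129 CPM with both SOM alleles. The log2 fold change for Dicer SOM/SOM was 0.28 (SE 0.14, 95% interval 0 to 0.56, adjusted p = 0.177), and 0.07 (adjusted p = 0.59) without replicate 3. In the paired-end run it was 63.7 to 79.0 CPM in HET, 80.1 and 67.8 in RNAI and 64.8 to 134 in DBL, with 0.07 (SE 0.23, adjusted p = 0.904) for RNAI and 0.38 (SE 0.19, adjusted p = 0.181) for DBL. Each mutant group of more than 1 library overlapped its controls. The single Dicer ΔMT/WT library at 64.1 CPM and the single MILI library at 52.3 CPM lay below theirs, which was not tested.

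The cytoplasmic actins were also compared with each other. The ratio of Actg1 to Actb on the RPKM scale was 0.279 to 0.295 in wild type and 0.477 to 0.496 in Dicer ΔMT/ΔMT. It was 0.599 to 0.950 in Dicer SOM/SOM, 0.525 to 0.745 in HET, 1.15 and 1.16 in RNAI and 0.802 to 1.44 in DBL. Every library homozygous for a mutant Dicer allele thus exceeded every wild-type or HET library of its run. The single Dicer ΔMT/WT library, at 0.380, also lay above wild type, with Actg1 at 24.8 CPM and Actb at 64.1 CPM. The Mili mutant at 0.704 lay within the HET range. Actg2 made up 4.21% to 5.92% of the summed RPKM of the 6 actins in wild type and 0.0803% to 0.344% in Dicer SOM/SOM. The 6 actins together were at 58.7 ± 2.95 RPKM in wild type, 69.1 ± 1.63 with both ΔMT alleles and 95.7 ± 31.7 with both SOM alleles (n = 3, 4 and 3), where replicate 3 was at 132 RPKM and the other two at 79.3 and 75.6. These sums and ratios were not tested.

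SRF, a factor known to regulate actin genes, binds a motif named the CArG box, and free actin controls its coactivators. In RefSeq promoters on GRCm38.p6, 6 of the 9 genes had an entry, and 482 of the 32851 promoters (1.47%) held a CArG box, which reads the same on both strands, within 250 bases before the start. It was found in Actg1, Acta1 and Actc1, 90, 73 and 47 bases before the start, and not in Acta2, Fmn2 or Spire2. Actb, Actg2 and Spire1 had no entry and were not searched, so Actg1 cannot be set against them here. The Actg1 stretch from 250 to 51 bases before its start is shown with the box in capitals, on the minus strand of chr11:120348546-120348745.
Actg1: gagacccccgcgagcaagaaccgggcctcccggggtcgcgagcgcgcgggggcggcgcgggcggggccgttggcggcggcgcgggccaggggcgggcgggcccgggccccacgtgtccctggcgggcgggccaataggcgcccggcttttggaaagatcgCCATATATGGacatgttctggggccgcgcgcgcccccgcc
The match is a description of these letters and says nothing of binding.

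The muscle actins Acta1, Acta2 and Actc1 were near the floor in most libraries. Acta1, the skeletal muscle actin, was at 0.431, 0.293 and 0.409 CPM in wild type and 0.6, 0.550 and 1.45 CPM in Dicer SOM/SOM. Those groups did not overlap, but the log2 fold change of 0.99 (SE 0.38, adjusted p = 0.0766) was not called. Some Acta1 reads are shared with the Actg1 family, at 2.22% of its 50-base stretches. Acta1 was dropped by the filter in the paired-end run, where no library held more than 8.9 counts. There an exact permutation test gave p = 0.333 for RNAI and p = 0.143 for DBL against HET, where the smallest possible values are 0.0667 and 0.0286. Acta2, the vascular smooth muscle actin, ranged from 0.0345 to 0.238 CPM in wild type and 0.189 to 0.435 CPM in Dicer SOM/SOM, a log2 fold change of 0.89 (SE 0.70, adjusted p = 0.376). It was not called in any comparison. Actc1, the cardiac actin, had at most 2 counts in any library and was tested in neither run. Of the 9 genes, 8 were tested in the single-end run and 7 in the paired-end run.

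The nucleators did not pass the test in any comparison. FMN2, a formin, elongates unbranched filaments. Its message was at 517, 579 and 469 CPM in wild type, 494 to 596 CPM with both ΔMT alleles and 420, 475 and 400 CPM with both SOM alleles. Dicer SOM/SOM lay below every Dicer ΔMT/ΔMT library and overlapped wild type. The log2 fold change against wild type was -0.27 (SE 0.11, 95% interval -0.48 to -0.06, adjusted p = 0.0783), and against Dicer ΔMT/ΔMT -0.36 (SE 0.10, 95% interval -0.56 to -0.17, adjusted p = 0.0524). Neither passed the threshold. DESeq2 gave adjusted p = 0.0586 for the first and 0.013 for the second, the latter a call. Both passed without SOM/SOM replicate 2 (-0.35, adjusted p = 0.0437, and -0.44, adjusted p = 0.0359). Without SOM/SOM replicate 3 the values were -0.22 (adjusted p = 0.168) and -0.31 (adjusted p = 0.106). In the paired-end run Fmn2 was at 519 to 631 CPM in HET, 504 and 575 in RNAI and 449 to 562 in DBL, with log2 fold changes of -0.10 (SE 0.14, 95% interval -0.37 to 0.18) and -0.15 (SE 0.11, 95% interval -0.37 to 0.07).

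Spire1, which works with FMN2 on the same vesicles, was at 486.5, 528 and 476 CPM in wild type and 471 to 487 CPM in Dicer ΔMT/ΔMT. It was at 496, 535 and 386 CPM in Dicer SOM/SOM, where the low value is replicate 3. The log2 fold change for Dicer SOM/SOM was -0.07 (95% interval -0.28 to 0.14, adjusted p = 0.67), and 0.05 without replicate 3. HET libraries were at 483 to 538 CPM, RNAI at 536 and 585 and DBL at 507 to 731, with 0.12 (95% interval -0.16 to 0.40) for RNAI and 0.24 (95% interval 0.01 to 0.47, adjusted p = 0.171) for DBL. Spire2, the sparser Spire, was at 6.62, 10.1 and 10.3 CPM in wild type and 6.23, 6.35 and 6.24 CPM in Dicer SOM/SOM. These groups did not overlap, but the value of -0.52 on the log2 scale (SE 0.20, adjusted p = 0.0704) was not called by edgeR. It was called by DESeq2 (adjusted p = 0.0459) and without wild-type replicate 1 (adjusted p = 0.0165). RNAI libraries, at 6.05 and 6.27 CPM, also lay below all HET libraries (6.64 to 8.17 CPM), and DBL libraries at 4.23 to 9.66 CPM did not. Spire2 was -0.27 (SE 0.28) in RNAI and -0.20 (SE 0.23) in DBL, neither called. A p that misses the threshold does not show that nucleator levels were equal, and the intervals above give what these libraries allow.

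**Figure D3:**
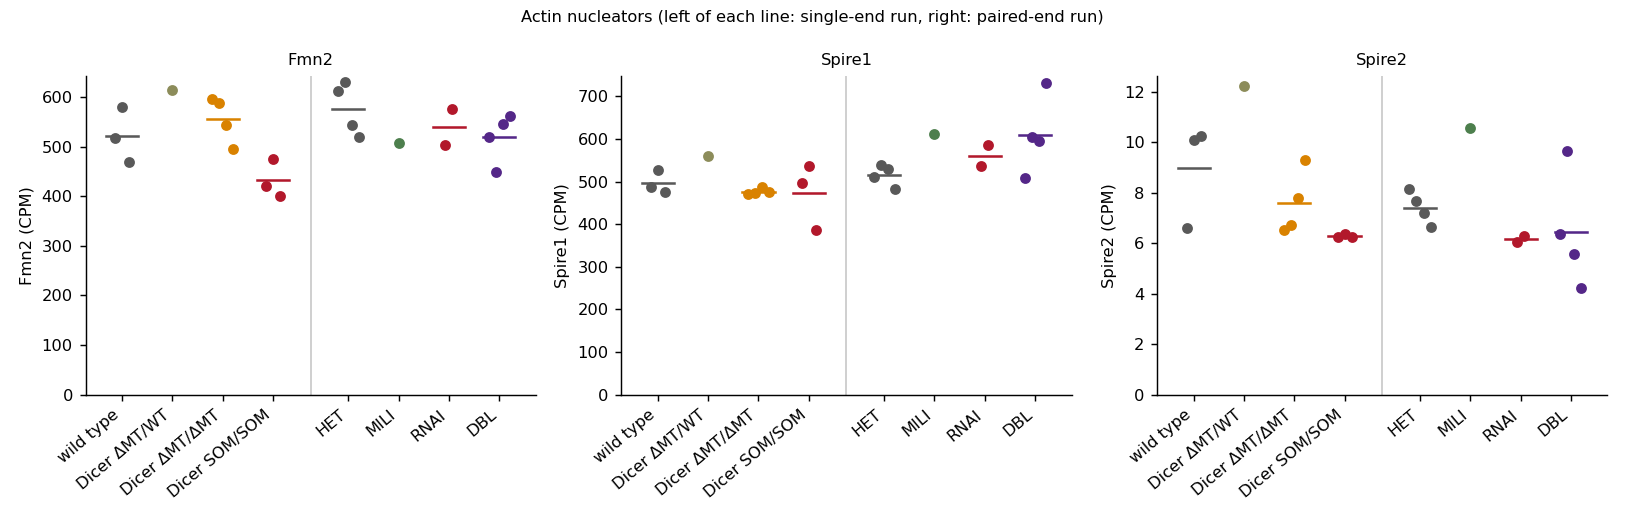
Fmn2, Spire1 and Spire2 in CPM (linear axes from 0) in each library by genotype, with the single-end run left of each grey line and group means as horizontal bars. Fmn2 in Dicer SOM/SOM (400 to 475 CPM) lies below Dicer ΔMT/ΔMT (494 to 596 CPM) and overlaps wild type, and Spire1 overlaps its controls in every replicated group. Spire2 lies just below all controls in Dicer SOM/SOM and RNAI and above them in the single Dicer ΔMT/WT and MILI libraries (12.2 and 10.6 CPM).

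In the comparison of DBL with RNAI none of the 9 genes was called by edgeR, against 0.314% of all genes (0.310% higher and 0.00476% lower), with 1 at an unadjusted p under 0.05 (Actg2) and none by DESeq2. Whether the change in Dicer SOM/SOM differed between the runs was tested in a joint fit. None of the 9 genes differed at an adjusted p under 0.05, with 2 at an unadjusted p under 0.05, against 0.00806% of 24824 genes called. Actg1 had a difference of 0.75 (SE 0.28, adjusted p = 0.457) and Actg2 -0.59 (SE 0.81, adjusted p = 0.883), but controls, Mili allele and read type differ between the runs and cannot be told apart.

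**Figure D4:**
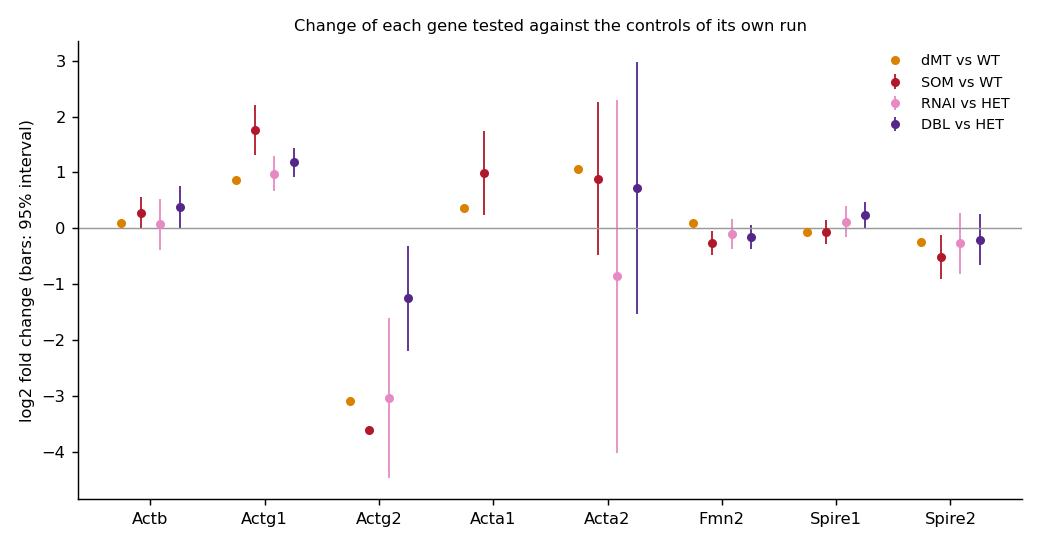
Log2 fold change from edgeR of each gene tested, against the controls of its own run (dMT is Dicer ΔMT/ΔMT, SOM is Dicer SOM/SOM, WT is wild type). Bars are 95% intervals and are left off for the comparison that chose the genes and for Actg2 in SOM vs WT. Actg1 lies between 0.86 and 1.76 and Actg2 between -3.61 and -1.25, whereas the points of Actb, Fmn2 and Spire1 lie between -0.27 and 0.38.

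The other genes of actin assembly were examined as 8 lists that held 125 genes, of which 112 were tested in the single-end run and 111 in the paired-end run. With both ΔMT alleles 8 were higher and 9 lower (15.2%, against 15.4% of all genes). With both SOM alleles 19 were higher and 20 lower than in wild type (34.8%, against 28.6%), and 18 and 21 without replicate 3, and 10 were higher and 3 lower than with both ΔMT alleles (11.6%, against 7.35%). In RNAI 8 were higher and 2 lower (9.01%, against 10.7%), and in DBL 13 were higher and 11 lower (21.6%, against 21.2%). In DBL against RNAI none was called, with 7 at an unadjusted p under 0.05 and 1 called by DESeq2. The lists do not include any of the 9 genes.

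Among the formins, which elongate unbranched filaments, 1 of 14 was higher and 3 were lower in Dicer SOM/SOM. Fmn1, a relative of Fmn2, rose from 35.5 ± 2.26 to 81.8 ± 9.93 CPM (log2 fold change 1.21, adjusted p = 5.77e-05) in Dicer SOM/SOM and by 1.37 in RNAI and 1.16 in DBL (adjusted p = 3.6e-04 and 1.99e-04). Fmnl3 fell from 879 ± 84.3 to 421 ± 16.4 CPM in Dicer SOM/SOM (-1.06, adjusted p = 8.44e-06) and by -0.99 in RNAI and -0.98 in DBL (adjusted p = 0.00149 and 1.23e-04). Inf2 fell in Dicer SOM/SOM (-1.33, adjusted p = 0.0299) and was not called in RNAI (-0.53, adjusted p = 0.608) or DBL (-0.23, adjusted p = 0.755). Fmn2 was not called in any of these comparisons.

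Among myosins and vesicle transport genes, 3 of 17 were higher and 2 lower in Dicer SOM/SOM. Rab11b, a RAB11 GTPase of recycling vesicles, rose from 17.0 ± 1.54 to 64.0 ± 7.49 CPM (1.91, adjusted p = 1.93e-06) and by 1.45 in RNAI and 1.52 in DBL (adjusted p = 9.79e-05 and 8.95e-06). Myh9, a nonmuscle myosin II heavy chain, fell in Dicer SOM/SOM (-0.63, adjusted p = 0.00118) and was not called in either paired-end comparison. Its relative Myh10 rose instead, by 1.58 in Dicer SOM/SOM (adjusted p = 6.54e-04), 1.45 in RNAI (adjusted p = 4.32e-04) and 1.41 in DBL (adjusted p = 8.27e-05).

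The list of SRF and its actin-sensing coactivators also held Ccn1, Ccn2, Egr1, Fos and Vcl. Of its 9 genes, 2 were higher (Mrtfb and Vcl) and 1 was lower in Dicer SOM/SOM. Vcl rose by 1.67 (adjusted p = 2.72e-06). Srf itself was not called there (0.31, adjusted p = 0.0607) or in RNAI (0.36, adjusted p = 0.299). In DBL it was higher (0.53, adjusted p = 0.033). Mrtfb, a coactivator that binds free actin and SRF, rose from 353 ± 27.8 to 1207 ± 94.5 CPM (1.77, adjusted p = 5.77e-07), and by 1.68 in RNAI and 1.64 in DBL (adjusted p = 4.6e-06 and 8.61e-07). Its relative Mrtfa fell in Dicer SOM/SOM (-0.40, adjusted p = 0.0205) and was not called in RNAI (-0.37) or DBL (-0.15). In the filament binding and crosslinking list 7 of 17 were higher and 3 lower in Dicer SOM/SOM. Lcp1, the bundling protein L-plastin, rose from 66.3 ± 10.3 to 485 ± 34.6 CPM (2.87, adjusted p = 4.36e-07) and by 2.88 in RNAI and 2.25 in DBL (adjusted p = 2.82e-07 and 5.81e-07). Ezr, which links filaments to the membrane, fell in Dicer SOM/SOM (-0.82, adjusted p = 0.0213). It was not called in RNAI (-0.38, adjusted p = 0.654) or DBL (-0.53, adjusted p = 0.312). Actn1, an actinin, fell in DBL (-0.67, adjusted p = 0.00964), a call that was lost with the replicate number as a block (-0.59, adjusted p = 0.0741).

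In the list of monomer binding and turnover, 3 of 17 were higher and 1 was lower in Dicer SOM/SOM. Cap2 rose from 0.0733 to 0.678 CPM in Dicer SOM/SOM (3.24, adjusted p = 0.0231), with -1.20 in RNAI (adjusted p = 0.616) and 1.77 in DBL (adjusted p = 0.151). These levels are near the floor, which was 0.0433 to 0.0495 CPM in wild type and 0.464 CPM in SOM/SOM replicate 3. Pfn4, a profilin, fell from 14.5 to 6.55 CPM (-1.05, adjusted p = 0.00642) and again in DBL (-1.27, adjusted p = 0.00145). It was not called in RNAI (-0.79, adjusted p = 0.107). Tmsb4x, which sequesters monomers, rose in DBL (3.36, adjusted p = 0.0024) from 0.173 to 1.89 CPM, with -0.60 in RNAI (adjusted p = 0.784). The Arp2/3 complex and its activators, which make branched filaments, had 1 of 17 higher and 4 lower in Dicer SOM/SOM, with Cttn higher (0.60, adjusted p = 0.0302) and Actr3b lower (-1.57, adjusted p = 0.00624). Cttn had the opposite sign in RNAI (-0.58, adjusted p = 0.426) and DBL (-0.30, adjusted p = 0.558). Actr3b was not called in RNAI (-0.63, adjusted p = 0.469) or DBL (-1.09, adjusted p = 0.053). Wasf3 fell in DBL (-0.78, adjusted p = 0.00236). Of the other actin family genes 1 of 7 was higher, Actr1b (0.83, adjusted p = 0.0124), and 1 was lower, Actr10 (-0.42, adjusted p = 0.0081), in Dicer SOM/SOM. Actr1b rose in DBL too (0.87, adjusted p = 0.00174) and was not called in RNAI (0.56, adjusted p = 0.0904). Actr10 was not called in RNAI (0.08, adjusted p = 0.886) or DBL (-0.05, adjusted p = 0.887).

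**Figure D5:**
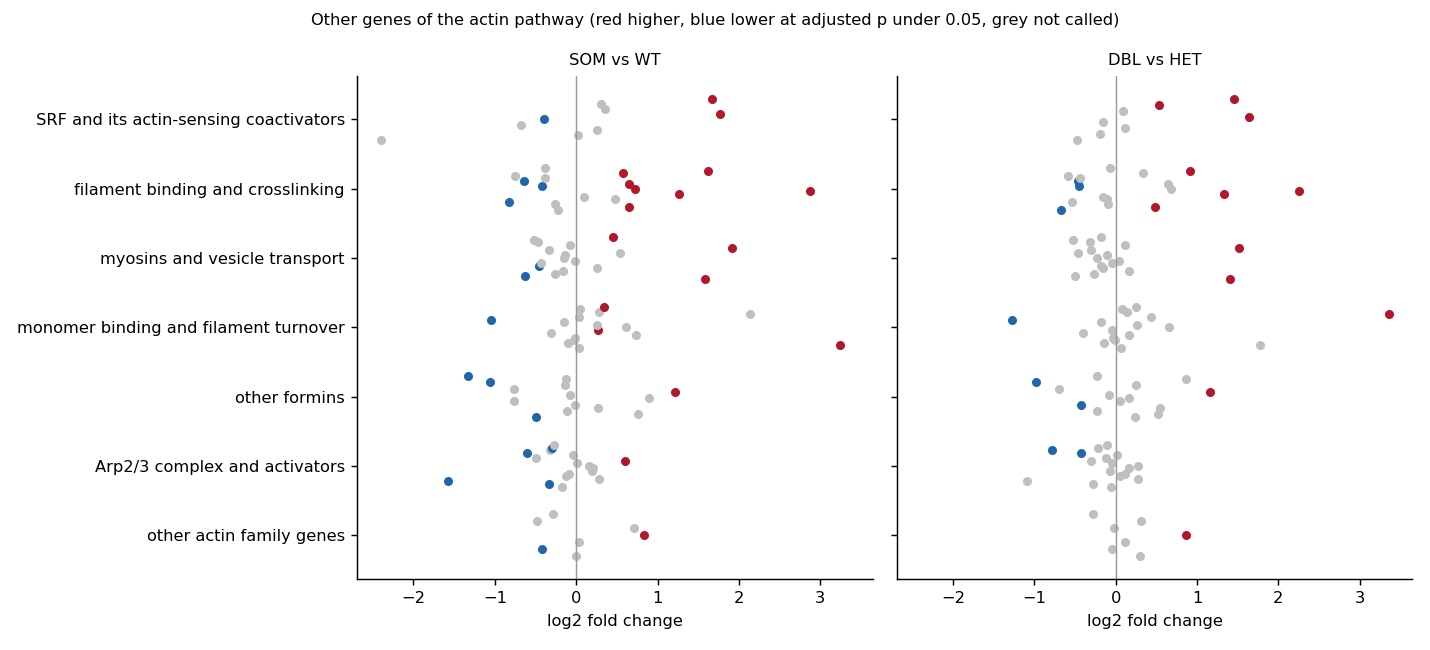
Log2 fold change of each tested gene of 7 of the 8 lists in Dicer SOM/SOM against wild type (left) and DBL against HET (right), each point a gene. Red points were higher and blue points lower at an adjusted p under 0.05, and most points are grey. The rightmost points on the left are Cap2 at 3.24, a gene near the floor in wild type, and Lcp1 at 2.87. On the right they are Tmsb4x at 3.36 and Lcp1 at 2.25. SOM and WT stand for Dicer SOM/SOM and wild type.

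The genes whose levels followed Actg2 most closely over all 22 libraries, each scaled to the controls of its run, were Serpinb8, Gm26791, Gm17767, Gm40614 and Peli2. Their root mean square difference from it was 0.403 to 0.531 on the log2 scale, against a median of 1.55 over 14918 genes. For Fmn2, the nearest 4 were Scyl2, Fam208b, Resf1 and Usp34, at 0.105 to 0.113 against a median of 0.382. Samples that chose Actg2 are among the 22, so the likeness is a description.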

How the data were processed

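The data were gene counts for 22 GV oocyte libraries, with 52636 gene identifiers, 52403 of them matched to a symbol. The authors mapped reads to mm10/GRCm38 with STAR 2.5.3a and deposited estimated counts per gene of GENCODE M15 from featureCounts, in which a read mapping to several places or genes was counted as a fraction of 1 and strand was ignored. This spreads reads of near-identical copies, and paired reads were counted without a stated pairing option. Counts were rounded to whole numbers, and genes below a minimum count of 10 or a total of 15 were left out. Each run was fitted alone with edgeR 4.0.16 in R 4.3.3 (TMM scaling, quasi-likelihood F test, 1 mean per genotype, adjusted over all genes tested). The single Dicer ΔMT/WT library entered no fit, and the single MILI library entered its run's fit without a test. DESeq2 1.42.0, its size factors, no filter, only the compared groups, a replicate block, age, and each library left out were tried. CPM and RPKM used the same scaling, and RPKM the exon length in the table. Intervals are 1.96 standard errors wide on each side, a normal multiplier that makes them narrower than the F test allows with few libraries. The gene lists, cell markers and the 9 genes were chosen with earlier results of these data known. All 9 genes are named. From 7 of the 8 lists the called genes with the largest rise and fall in Dicer SOM/SOM against wild type and in DBL against HET are named, as are the 5 genes nearest to Actg2 and the nearest 4 to Fmn2. The other list, which counts in the totals, and the next gene near Fmn2 are not reported here. Scripts were tested on simulated counts. Same-numbered DBL and HET libraries deviated together from their group means (correlations 0.383, 0.124 and 0.345 for 1o, 2o and 2), so the numbers may pair these groups, a hint from the data. The DBL values above come from fits without this pairing, except where a block is named. Values of Actg1 and Actg2 with a replicate block are given below. Each such pair also shared its Gm42418 set.

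The markers of other cells were as follows. Granulosa and cumulus markers summed to 84.1 to 153 CPM over all groups and blood markers to 43.9 to 71.9 CPM, with Ptprc not above 1 CPM in any group. Striated muscle markers summed to 384 to 752 CPM, with Tnnt2 not above 1 CPM in any group, and theca and stroma markers to 2.19 to 28.2 CPM.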

Additional observations from a re-analysis of the deposited data

Results flagged for a closer look

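Acta2 in DBL replicate 2o stood apart from the other double-mutant libraries, at 0.813 CPM (36 counts) against 0 to 0.135 CPM in the other 3. It was the only one of 23 sets of values (a gene in a group of 4 libraries) looked at to do so, where chance alone picks out about 1 in 20. In the same library the summed theca and stroma markers were the highest of the DBL libraries, at 28.2 CPM against 7.98 to 10.4 CPM, and their part in the Acta2 value was not tested.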

How the results depend on the processing

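The number of the 9 genes called ranged, when 1 library was left out, from 1 to 2 in Dicer ΔMT/ΔMT against wild type, from 2 to 4 in Dicer SOM/SOM against wild type, from 0 to 2 in Dicer SOM/SOM against Dicer ΔMT/ΔMT, from 1 to 2 in RNAI against HET and from 1 to 2 in DBL against HET. The 4 were reached without SOM replicate 2, where Actb and Fmn2 were called too. Calls over all genes moved as well, so nothing is read from these counts alone. In Dicer SOM/SOM against wild type they were 6627, 6389 without SOM replicate 3 and 7184 with DESeq2. In DBL against HET they were 4447, 5101 with DESeq2, 5255 with a term for the Gm42418 set, 3381 with a replicate block and 2373 within the high set. With DESeq2, the count was 2 in Dicer SOM/SOM against Dicer ΔMT/ΔMT and 2 in DBL against HET, and in the former it was 0 when only these groups were fitted. In DBL against HET it was also 2 without a filter on low counts, 2 with a term for the Gm42418 set and 2 within the high set, the second gene being Actg2 each time (the cause was not tested). The term and the split by Gm42418, and the split by age below, were chosen after the data were seen. Outside DBL against HET, it was not clear whether replicate numbers pair the libraries. Correlations of same-numbered libraries were -0.0332 to 0.138 in the single-end run, over 0.1 in 3 of 9 pairs. They were -0.213, -0.174 and -0.231 for the pairs with RNAI, whose 2 libraries are too few to decide it. With a replicate block, RNAI against HET had 1 call in place of 2, Actg2 not passing (-3.16, adjusted p = 0.104), Fmn2 passed in Dicer SOM/SOM against wild type (-0.27, adjusted p = 0.0353) and against Dicer ΔMT/ΔMT (-0.42, adjusted p = 0.024), and Actg1 did not pass in the latter (0.86, adjusted p = 0.0624). In DBL against HET the block changed no call among the 9 genes (Actg1 1.11, adjusted p = 7.75e-04, Actg2 -1.47, adjusted p = 0.12), and 20 actin pathway genes were called in place of 24, Actn1 being the only one of those named in the report that was lost.

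Directions reversed only for genes that had not been called in the comparison. In the ranges below, 1 library was left out. Acta2 reversed in Dicer SOM/SOM against Dicer ΔMT/ΔMT (0.24 with a replicate block, 0.28 without ΔMT/ΔMT replicate 4, and a range from -0.40 without SOM replicate 3 to 0.28, with 0.09 without SOM replicate 2), in RNAI against HET (1.05 with a replicate block, 0.20 with a term for age), in DBL against RNAI (-0.02 with a replicate block) and in DBL against HET (-3.23 within the high set). Without SOM replicate 3, Spire1 reversed against wild type (0.05) and Dicer ΔMT/ΔMT (0.11, range -0.11 to 0.11), and Actb against Dicer ΔMT/ΔMT (-0.02, range -0.02 to 0.32). Actb reversed in RNAI against HET without RNAI replicate 1 (-0.06, range -0.06 to 0.19). In DBL against RNAI, Spire2 reversed with a replicate block (-0.21), an age term (-0.19) and without DBL replicate 2o (-0.17, range -0.17 to 0.23), and Fmn2 without DBL replicate 2o (0.03) and without RNAI replicate 2 (0.05, range -0.13 to 0.05). In DBL against HET, Spire2 reversed in animals over 30 weeks (0.02) and Fmn2 in animals under 30 weeks (0.06). Over all alternatives, log2 fold changes of single genes reversed 18 times, lost a call 12 times, gained a call 15 times and kept direction and call 539 times. Actc1 did not exceed the floor of 3 counts in any library, and Actg2 was under it only in SOM replicate 3, so that at this depth no difference was detectable for Actc1.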

Other observations

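The single Mili mutant library, which had no replicate, held 37.4 CPM of Actg1, 2.37 of Actg2, 508 of Fmn2, 612 of Spire1 and 10.6 of Spire2. Its Spire2 level was above every HET library (6.64 to 8.17 CPM), its Actb level of 52.3 CPM was below them (63.7 to 79.0 CPM), and with a single library neither difference was tested.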
